A study of Macaca mulatta with 36 samples.

Results

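TAP1 and NLRC5 were followed in the hippocampus of 18 male rhesus macaques (Macaca mulatta), 9 with encephalitis caused by simian immunodeficiency virus (SIVE) and 9 uninfected controls. Both genes were chosen by name, as every probe set whose only assigned gene symbol is TAP1 or NLRC5. This gave 2 genes of the 14132 with a symbol of their own on the array, each read by 1 probe set of 52865: MmugDNA.1081.1.S1_at for TAP1 (Entrez gene 717726) and MmugDNA.30929.1.S1_at for NLRC5 (Entrez gene 703437). A probe set is a group of short probes that together report 1 level per array, here on a log2 scale, so a difference of 1 is a doubling.

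Class I molecules of the major histocompatibility complex (MHC) carry short peptides from inside a cell to its surface, where CD8 T cells read them. Proteasomes cut the peptides, the transporter built from TAP1 and TAP2 pumps them into the endoplasmic reticulum, and a loading complex fits them to a heavy chain paired with beta-2 microglobulin. NLRC5 is a regulator of the NLR family that enters the nucleus and drives transcription of class I heavy chains, B2M, TAP1 and immunoproteasome subunits, much as its relative CIITA does for class II genes. In the healthy brain, neurons are known for low class I levels, and interferons raise both TAP1 and NLRC5 in many cell types.

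Every animal was read on 2 arrays, labelled technical replicates, and the mean of its arrays was used as 1 value. SIVE 1 to SIVE 4, and Control 8 and Control 9, are labelled as given anti-CD8, an antibody used in macaques for depleting CD8 T cells, while 5 SIVE animals and 7 controls are labelled as without it. Ages ran from 2 to 6 years in SIVE and from 3 to 8 years among controls, and each of the 4 SIVE animals with anti-CD8 was aged 6. All 9 SIVE animals are infected and all 9 controls are not, so infection and encephalitis cannot be told apart, and whole tissue was read, so more cells with a transcript and more transcript per cell cannot be told apart either. The 4 measured markers of hippocampal neurons (PROX1, WFS1, NEUROD6 and ZBTB20) averaged between 8.62 and 9.39 in SIVE animals and between 8.70 and 9.28 in controls, above the median probe set level of 5.65. Array medians lay between 5.59 and 5.75. SIVE 2, SIVE 3 and Control 8 stood apart in the signal of 3′ over 5′ probe sets of control transcripts, which tends to be higher where RNA is less intact. Their log2 differences were 1.19, 0.955 and 1.45 against 0.104 to 0.466 in the other 15 animals. Results are therefore also given without these 3 animals.

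TAP1 was higher in SIVE. Its log2 level was 8.83 in SIVE 1, 9.74 in SIVE 2, 9.52 in SIVE 3, 9.47 in SIVE 4, 9.35 in SIVE 5, 9.41 in SIVE 6, 10.39 in SIVE 7, 9.02 in SIVE 8 and 9.59 in SIVE 9. In controls 1 to 9 it was 6.18, 6.37, 6.49, 6.60, 6.41, 6.76, 6.33, 6.87 and 6.48. SIVE 7 was the highest of all and SIVE 1 the lowest of its group, yet SIVE 1 still lay 1.96 log2 units above the highest control, Control 8. The group means were 9.48 ± 0.44 (SD, n = 9) and 6.50 ± 0.22 (SD, n = 9). The difference of 2.98 ± 0.15 (SE; 95% confidence interval 2.66 to 3.30), or 7.90-fold, passed limma's test with a Benjamini-Hochberg adjusted p of 8.2e-11 over 52707 probe sets.

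NLRC5 rose by nearly the same amount from a low level in controls. It stood at 7.56 in SIVE 1, 9.19 in SIVE 2, 8.54 in SIVE 3, 8.22 in SIVE 4, 8.23 in SIVE 5, 8.29 in SIVE 6, 9.15 in SIVE 7, 7.60 in SIVE 8 and 8.19 in SIVE 9. Controls 1 to 9 gave 5.26, 5.24, 5.46, 5.23, 5.31, 5.16, 5.08, 6.16 and 5.43, so that only Control 8 exceeded the median probe set level of 5.65. SIVE 2 and SIVE 7 were high, SIVE 1 and SIVE 8 low, and the groups were separated by a gap of 1.41. The means were 8.33 ± 0.57 (SD, n = 9) in SIVE and 5.37 ± 0.32 (SD, n = 9) in controls, a difference of 2.96 ± 0.20 (SE; 95% confidence interval 2.53 to 3.38), or 7.77-fold, with a limma adjusted p of 5.35e-09. Without Control 8 the control mean of NLRC5 was 5.27 ± 0.13 (SD, n = 8) and that of TAP1 6.45 ± 0.18 (SD, n = 8).

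**Figure D1:**
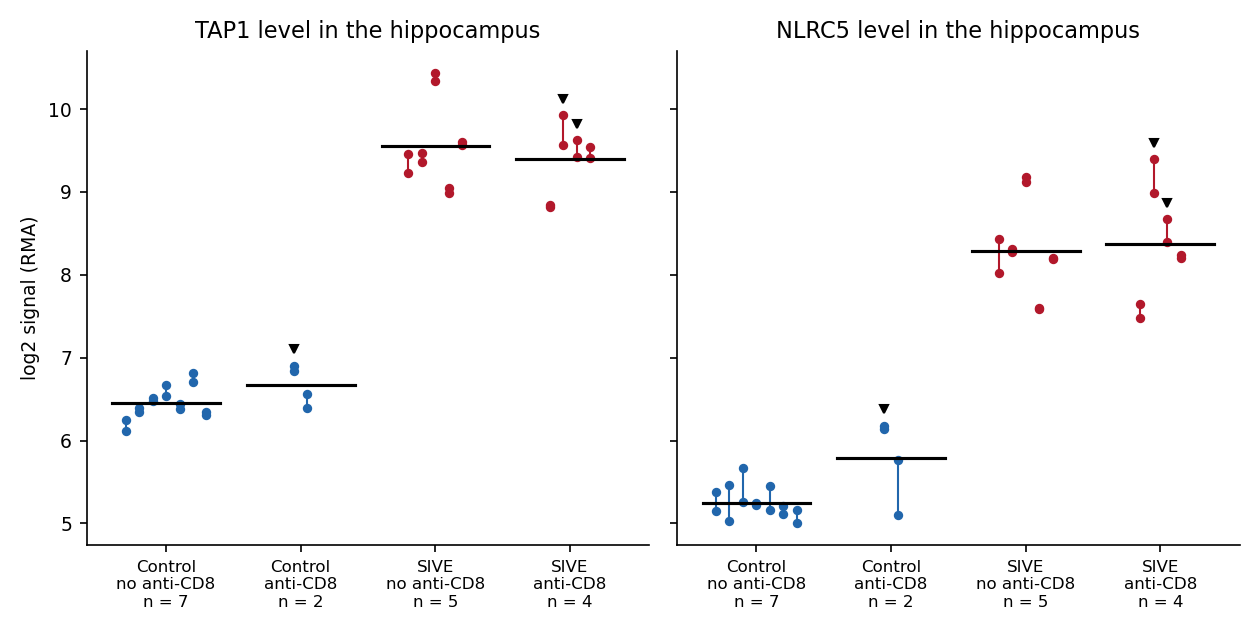
Log2 level of TAP1 and NLRC5 in each animal, by group (SIVE in red, controls in blue) and anti-CD8 label. Dots are single arrays, a line joins the 2 arrays of an animal, black bars are the means of the animals in each column, and black triangles mark SIVE 2, SIVE 3 and Control 8, the animals of high 3′ signal; every SIVE animal lies above every control for both genes, and Control 8 is the highest control.

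Of all probe sets tested, 3.63% were called higher in SIVE, and in 1.2% (632 probe sets) the lowest SIVE animal exceeded the highest control, as it did for both genes. Ordered by p, TAP1 was in place 35 and NLRC5 in place 87 of the 52707, and ordered by difference they stood side by side in places 66 and 67. An exact two-sided permutation test of each difference gave p = 4.11e-05, the smallest that 9 against 9 animals allow. Leaving out SIVE 2, SIVE 3 and Control 8 gave 2.98 ± 0.17 (SE) for TAP1 and 2.90 ± 0.17 (SE) for NLRC5, with limma adjusted p of 2.39e-09 and 4.65e-09.

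The arrays of an animal repeated TAP1 closely. Their SD was 0.0989 for TAP1 and 0.198 for NLRC5, against a median of 0.146 over all probe sets. The widest gap between arrays of an animal was 0.359 for TAP1, in SIVE 2, and 0.663 for NLRC5, in Control 9 (5.10 and 5.76). Between animals of a group the SD was larger, 0.347 for TAP1 and 0.463 for NLRC5, against a median of 0.191. SIVE animals varied more among themselves than controls did, with an SD ratio of 2.05 for TAP1 and 1.80 for NLRC5, where the median probe set had 0.927. This difference in spread was not tested.

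The rise of TAP1 over the control mean ran from 2.33 in SIVE 1 to 3.89 in SIVE 7, or 5.03-fold to 14.8-fold. That of NLRC5 ran from 2.19 in SIVE 1 to 3.82 in SIVE 2, or 4.57-fold to 14.1-fold. The NLRC5 rise was the larger in 4 of the 9 animals, most of all in SIVE 2, by 0.57. The order of the animals was alike at both ends. SIVE 7 and SIVE 2 held the top places for both genes, and SIVE 8 and SIVE 1 the last ones.

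Treated and untreated animals showed the rise alike in direction. Without anti-CD8, TAP1 was 9.55 ± 0.51 (SD, n = 5) in SIVE and 6.45 ± 0.19 (SD, n = 7) in controls, a difference of 3.10 ± 0.19 (SE; limma adjusted p = 1.41e-08). NLRC5 was 8.29 ± 0.56 and 5.25 ± 0.12 in the same animals, a difference of 3.04 ± 0.25 (SE; limma adjusted p = 3.84e-07). In this comparison 2.34% of probe sets were called higher. With anti-CD8, TAP1 was 9.39 ± 0.39 (SD, n = 4) in SIVE and 6.67 ± 0.27 (SD, n = 2) in controls, a difference of 2.72 ± 0.29 (SE; limma adjusted p = 4e-05). NLRC5 was 8.38 ± 0.68 and 5.80 ± 0.51, a difference of 2.58 ± 0.36 (SE; limma adjusted p = 0.000789), where 0.844% of probe sets were called higher. With a term for the replicate number shared by the groups, the treated differences were 2.39 for TAP1 and 1.80 for NLRC5. Neither was then past limma's test (adjusted p = 0.379 and 0.526). Treated animals are numbered 1 to 4 in SIVE, and 8 and 9 in controls, so no replicate number holds both. This term therefore compares them only through untreated animals, and same-numbered animals did not vary together. The treated controls are only Control 8 and Control 9, and Control 8 is 1 of the animals of high 3′ signal. Without the 3 animals of high 3′ signal the treated animals gave 2.67 ± 0.40 (SE) for TAP1 and 2.46 ± 0.41 (SE) for NLRC5, with Control 9 as the lone treated control, assumed to vary like the other groups (limma adjusted p = 0.00632 and 0.013).

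The difference between these effects (with anti-CD8 minus without) was -0.38 ± 0.35 (SE; 95% confidence interval -1.11 to 0.35) for TAP1 and -0.46 ± 0.44 (SE; -1.39 to 0.47) for NLRC5, neither past limma's test (adjusted p = 1.00 for each). Limma called 0% of the 52707 probe sets there. An unadjusted p under 0.05 was found in 1481 of them, below the share of 0.05 that chance gives on average. Within SIVE, treated minus untreated animals gave -0.16 ± 0.22 (SE; -0.63 to 0.31, limma adjusted p = 0.753) for TAP1 and 0.09 ± 0.28 (SE; -0.51 to 0.68, limma adjusted p = 0.907) for NLRC5, in a comparison that called 0.0019% of probe sets (1 probe set). Both signs turn when single animals are left out. Within controls the same contrast gave 0.23 ± 0.27 (SE; -0.33 to 0.79, limma adjusted p = 0.644) and 0.54 ± 0.34 (SE; -0.17 to 1.26, limma adjusted p = 0.395), with 0% called and 8266 probe sets at an unadjusted p under 0.05. Within SIVE the count at an unadjusted p under 0.05 was 8079. The counts of 8266 and 8079 are each above a share of 0.05 of the 52707 probe sets. The intervals still allow a change of over 1 log2 unit in NLRC5 among controls, so similarity is not shown. All treated SIVE animals were of 1 age, which cannot be told apart from the treatment within SIVE. SIVE 2, SIVE 3 and Control 8, the animals of high 3′ signal, are all labelled as given anti-CD8. No untreated animal had such a signal, so it is mixed with the treatment too. Without these animals the contrast within SIVE was -0.40 for TAP1 and -0.40 for NLRC5. Within controls it was 0.03 and 0.18, with Control 9 as the lone treated control. The part of the 3′ signal in these contrasts was not tested.

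Within SIVE, the same animals held the highest and the lowest levels of TAP1 and NLRC5, with less likeness between these ends. SIVE 9 was in place 3 for TAP1 and in place 7 for NLRC5. Pearson's r over the 9 animals was 0.899 (exact permutation p = 0.00115, two-sided; 0.00689 adjusted by Benjamini-Hochberg over 12 relations computed). Spearman's rho was 0.767 (exact permutation p = 0.0214; adjusted 0.0856), which did not pass after adjustment. Without SIVE 1 and SIVE 7, the animals farthest from the median TAP1 level, r was 0.886. Without SIVE 2 and SIVE 3, the animals of high 3′ signal, it was 0.975 (adjusted exact permutation p = 0.0381). The 4 treated and 5 untreated animals are too few for an r of their own. Taken as deviations from the mean of treated and of untreated animals, the levels correlated with r = 0.933 (exact permutation within these groups, p = 0.00243).

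**Figure D2:**
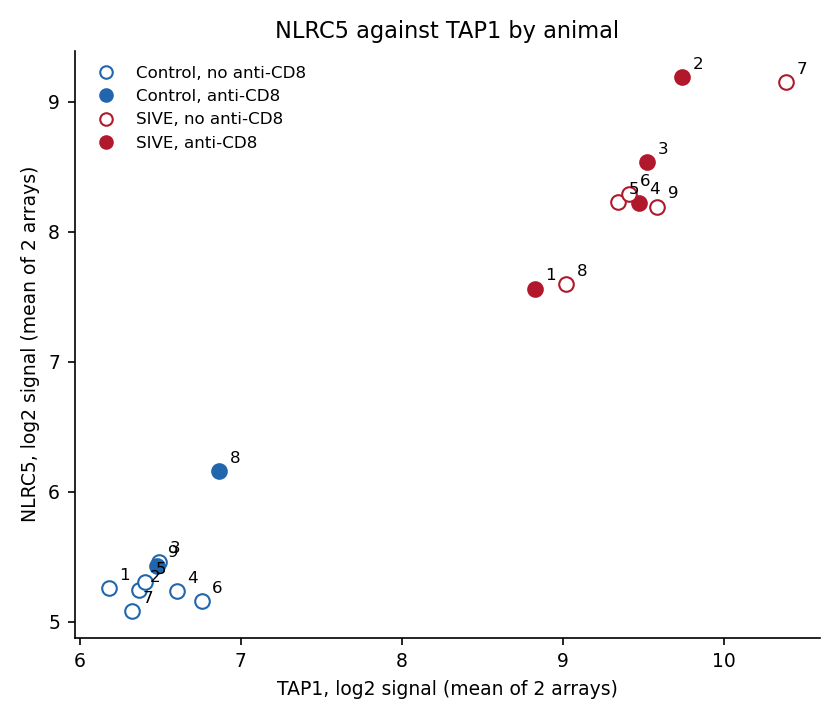
NLRC5 against TAP1 log2 level per animal, each point the mean of 2 arrays and numbered by animal, in red for SIVE and blue for controls, filled where labelled as given anti-CD8. SIVE 1 and SIVE 8 lie at the low end and SIVE 2 and SIVE 7 at the high end of the SIVE animals (r = 0.899). The other SIVE animals lie close together between them, and among controls Control 8 stands apart.

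Among the 9 controls r was 0.596 (exact permutation p = 0.0961; adjusted 0.192), and without Control 8 it was 0.0038, so this value rests on that animal. This control relation was added after the data were seen, and the difference between the SIVE and control relations was not tested.

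Partners of TAP1 and NLRC5 within SIVE were also compared. PSMB8, a catalytic immunoproteasome subunit added as a partner after the data were seen, followed TAP1 (r = 0.846, adjusted exact permutation p = 0.0103) and NLRC5 (r = 0.921, adjusted exact permutation p = 0.00689). Without SIVE 2 and SIVE 3 these were 0.905 (adjusted p = 0.0381, exact) and 0.881 (adjusted p = 0.0683, exact). IRF1, a transcription factor that interferon induces, gave r = 0.869 with TAP1 (adjusted exact permutation p = 0.0103) and 0.764 with NLRC5 (adjusted exact permutation p = 0.0238). Without SIVE 2 and SIVE 7, which have the highest IRF1 levels, r fell to 0.452 and 0.354, so both relations rest on those animals.

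B2M, the light chain of class I, had no relation past the threshold with either gene over all 9 animals, with r of 0.160 for TAP1 and -0.253 for NLRC5 (adjusted exact permutation p = 0.669 and 0.563). Its SIVE levels lay close together, from 12.80 in SIVE 2 to 13.25 in SIVE 7. The lowest were those of SIVE 2 and SIVE 3, the animals of high 3′ signal, and without them r was 0.742 and 0.652 over 7 animals (adjusted exact permutation p = 0.121 and 0.172). The part of the 3′ signal in these values was not tested. The probe set of a presumed SIV coding sequence gave r of 0.508 with TAP1 and 0.381 with NLRC5 (adjusted exact permutation p = 0.276 and 0.464). Spearman's rho was 0.633 and 0.233 (adjusted exact permutation p = 0.182 and 0.634). In SIVE 6, whose virus level of 7.53 was the lowest of the group, TAP1 and NLRC5 were near the middle of their ranges. Without SIVE 6 and SIVE 9, the animals farthest from the median virus level, r was 0.661 with TAP1 and 0.598 with NLRC5. The 3′ minus 5′ signal itself fell into clusters, so it was set against the genes only in the 7 SIVE animals without SIVE 2 and SIVE 3, with r of 0.359 for TAP1 and 0.299 for NLRC5 (exact permutation p = 0.404 and 0.490). Without SIVE 7 the value for TAP1 was 0.888 (adjusted exact permutation p = 0.0417), past the threshold.

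**Figure D3:**
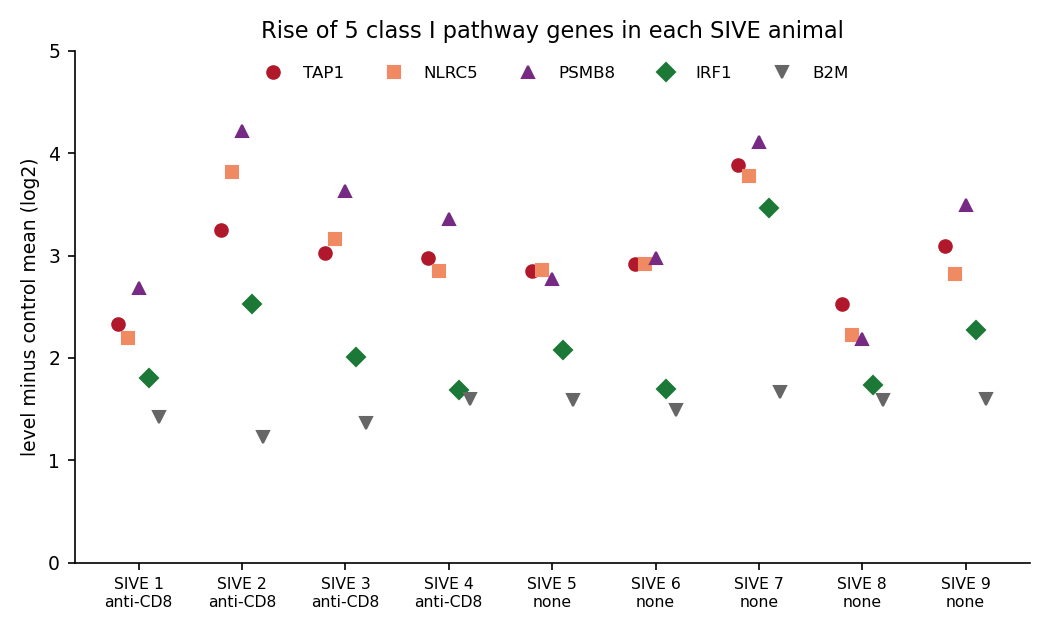
Rise of TAP1, NLRC5, PSMB8, IRF1 and B2M over the control mean (log2) in each SIVE animal, in the order of the animal numbers with the anti-CD8 label below. TAP1, NLRC5 and PSMB8 are high in SIVE 7 and SIVE 2 and low in SIVE 1 and SIVE 8, while B2M stays between 1.22 and 1.67.

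The class I pathway around both genes was described through 7 lists with 57 genes, of which 37 were measured by name. Of these 37, 17 were higher in SIVE, 0 lower and 20 not past the test, with a median difference of 0.44. Over all 14132 genes, 5.72% were higher and 1.51% lower, with a median difference of -0.02. Of the 35 pathway genes other than TAP1 and NLRC5, 15 were higher, and in 10 the SIVE animals lay above all controls. Over all 52707 probe sets the SIVE animals lay above all controls in 1.2%, a share taken by probe set and not by gene. Only PSMB8 had a larger difference than NLRC5. Without the 3 animals of high 3′ signal 21 of the 37 were higher. Calls rose over the whole array as well, where 2508 of 52707 probe sets were then higher, against 1912 with all animals.

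Among transporters, TAP2, the other half-transporter of the pump, rose by 1.09 ± 0.12 (SE; 8.02 against 6.94, limma adjusted p = 6.97e-06) beside the 2.98 of TAP1, with no test between them. The other TAP2 probe sets, both dimmer, were not past the test. ABCB9, a lysosomal peptide transporter, differed by -0.04 ± 0.12 (SE). In the immunoproteasome all 3 measured subunits rose. PSMB8 rose by 3.27 ± 0.23 (SE; 9.06 against 5.79), or 9.64-fold, PSME2, part of the proteasome activator, by 1.86 ± 0.14 (SE), and PSMB10, another catalytic subunit, by 0.71 ± 0.17 (SE; limma adjusted p = 0.0161). The single other PSME2 probe set was not past the test.

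Of 6 genes of the loading complex and of peptide trimming, 2 rose. TAPBP (tapasin), which bridges the transporter and class I, rose by 1.11 ± 0.16 (SE), and ERAP1, an aminopeptidase that trims peptides, by 1.10 ± 0.09 (SE). TAPBPL, a relative of tapasin, had a difference of 0.43 ± 0.13 (SE; limma adjusted p = 0.0526) and PDIA3, a disulfide isomerase, one of 0.31 ± 0.10 (SE; limma adjusted p = 0.0869), neither past the test. Of 7 class I chains, 6 rose. MAMU-I rose by 2.38 ± 0.19 (SE), MAMU-B by 2.20 ± 0.19 (SE), MAMU-E by 2.23 ± 0.27 (SE) and B2M by 1.51 ± 0.14 (SE), and MAMU-F was the chain that did not pass, though 1 of its 2 other probe sets was higher. The macaque heavy chains (MAMU) are close copies of each other and their probe sets can share signal, so the split among them is uncertain. The second MAMU-B probe set was not past the test. The class I-like molecules HFE and FCGRT, which handle iron uptake and antibody transport, gave 0.06 ± 0.08 and -0.03 ± 0.15 (SE).

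NLRC5 was the one regulator called of 8 measured, and the other 7 were not past the test. Over all genes 5.72% were higher, so that no call among these 7 is near the background. CIITA, its relative for class II genes, was 5.91 ± 0.09 (SD, n = 9) in SIVE and 6.00 ± 0.19 (SD, n = 9) in controls, a difference of -0.09 ± 0.07 (SE; limma adjusted p = 0.492). RFX5, a DNA-binding partner used at class I and class II promoters, differed by 0.27 ± 0.08 (SE; limma adjusted p = 0.0593), and NFYA, a subunit of the factor NF-Y, by 0.12 ± 0.10 (SE; limma adjusted p = 0.502), though 1 of its 4 other probe sets was higher. These regulators, unlike NLRC5, gave overlapping levels in SIVE and controls, and no test compared their differences with that of NLRC5.

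Upstream in interferon signalling, 3 of 8 measured genes rose. IRF1 rose by 2.14 ± 0.19 (SE; 7.91 against 5.77), IFNAR2, a chain of the type I interferon receptor, by 1.21 ± 0.16 (SE) and STAT2, which carries the type I signal to the nucleus, by 0.95 ± 0.14 (SE). The other IFNAR2 probe set was not past the test. JAK2, a kinase of the interferon gamma receptor, had a difference of 0.68 ± 0.21 (SE; limma adjusted p = 0.069), though 1 of its 2 other probe sets was higher. The interferons IFNG (3.41 against 3.44) and IFNB1 (3.71 against 3.72), named after their values were seen, lay well below the median probe set level in both groups. PSMB9 and IRF9 were not analysed here.

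**Figure D4:**
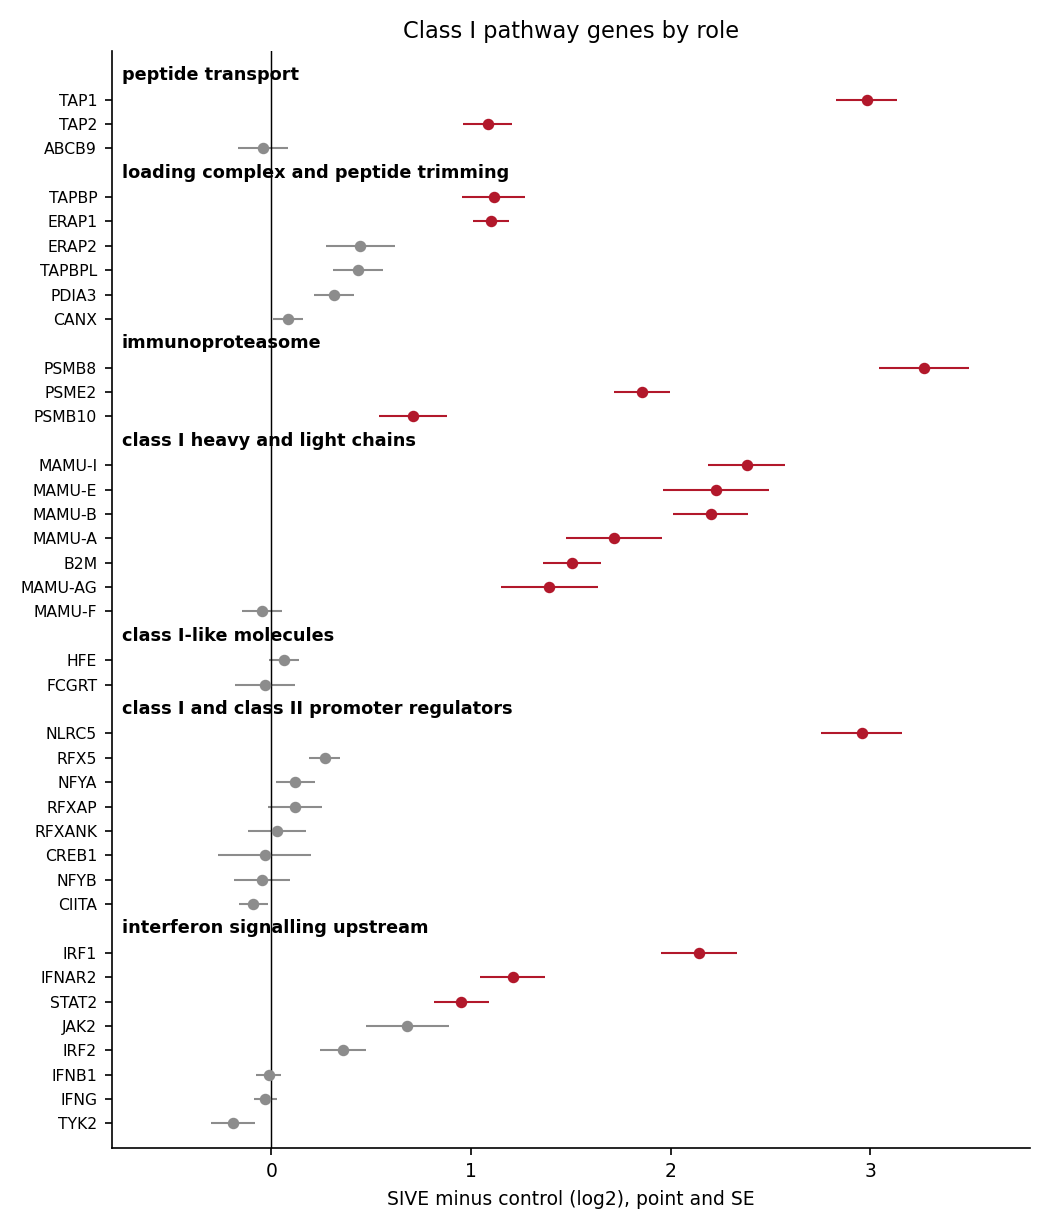
Log2 difference (SIVE minus control) with SE bars for the 37 measured genes of the class I pathway, grouped by list, with red points for genes higher at a limma adjusted p under 0.05 and grey points for the others. TAP1, NLRC5 and PSMB8 lie near 3, apart from the other pathway genes, of which MAMU-I (2.38) comes next.

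Markers of other cell types were compared between SIVE and controls as well, where 5.72% of all genes were higher and 1.51% lower. Of 6 measured macrophage and myeloid markers, 4 (PTPRC, CD14, LYZ and VSIG4) were higher in SIVE. MRC1 (-0.14 ± 0.09, SE) and CD68 (-0.05 ± 0.10, SE) were not past the test, though the other CD68 probe set was higher. The mean level of the list was 8.15 to 8.79 in SIVE animals and 6.97 to 7.52 in controls, without overlap. Of 6 T cell and cytotoxic markers, 1 was higher (GZMB, by 2.36 ± 0.34, SE), with list means of 6.13 to 6.92 and 5.88 to 6.40. CD8A differed by -0.12 ± 0.18 (SE) and CD8B by -0.10 ± 0.07 (SE). Of 5 microglia markers, 1 (AIF1) was higher, with list means of 6.23 to 7.64 and 6.67 to 7.26. The other 4 were not past the test, with differences of -0.15 for CX3CR1, -0.44 for P2RY12, -0.10 for TMEM119 and 0.45 for CSF1R. Of 4 endothelial markers, 3 were higher (7.65 to 8.90 and 7.34 to 8.41). Of 3 astrocyte markers, GFAP was higher and SLC1A2 lower (10.68 to 11.26 and 10.72 to 11.52). For AIF1, CDH5, VWF and GFAP the single other probe set was not past the test. Both other PECAM1 probe sets and 2 of the 3 other PTPRC probe sets were higher. SYT1, the 1 measured general neuron marker, and the 4 hippocampal neuron markers did not pass. The part of these cells in the rise of TAP1 and NLRC5 was not tested.

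The genes that lie beside TAP1 and NLRC5 were also read. In the RefSeq gene order of assembly T2T-MMU8v2.0, used only for order, TAP1 lies on chromosome 4 within the MHC, next to PSMB8 and close to TAP2. Of the 5 nearest measured protein-coding genes on each side of TAP1, leaving out uncharacterised ones, 5 of 10 were higher and 0 lower, with a median difference of 0.75. Beside PSMB8 and TAP2 these were the class II genes MAMU-DPA (1.66 ± 0.26, SE), MAMU-DQA1 (1.42 ± 0.23, SE) and MAMU-DMA (1.15 ± 0.17, SE). Other class II genes there were not past the test: MAMU-DQB1 (0.41 ± 0.16, SE), MAMU-DOB (0.01 ± 0.05, SE) and MAMU-DOA (-0.08 ± 0.07, SE). Neither were BRD2, a chromatin reader in their midst (-0.03 ± 0.08, SE), and COL11A2 (-0.23 ± 0.15, SE). NLRC5 lies on chromosome 20 between CETP and CPNE2. Of its 10 neighbours 0 passed limma's test in either direction, with a median of -0.02 and a range from -0.24 (PLLP) to 0.37 (MT1X). Over all genes 5.72% were higher and 1.51% lower, so that 0 of 10 is near the background, and the counts around TAP1 and NLRC5 were not tested against each other. These neighbours were looked up after the data were seen.

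**Figure D5:**
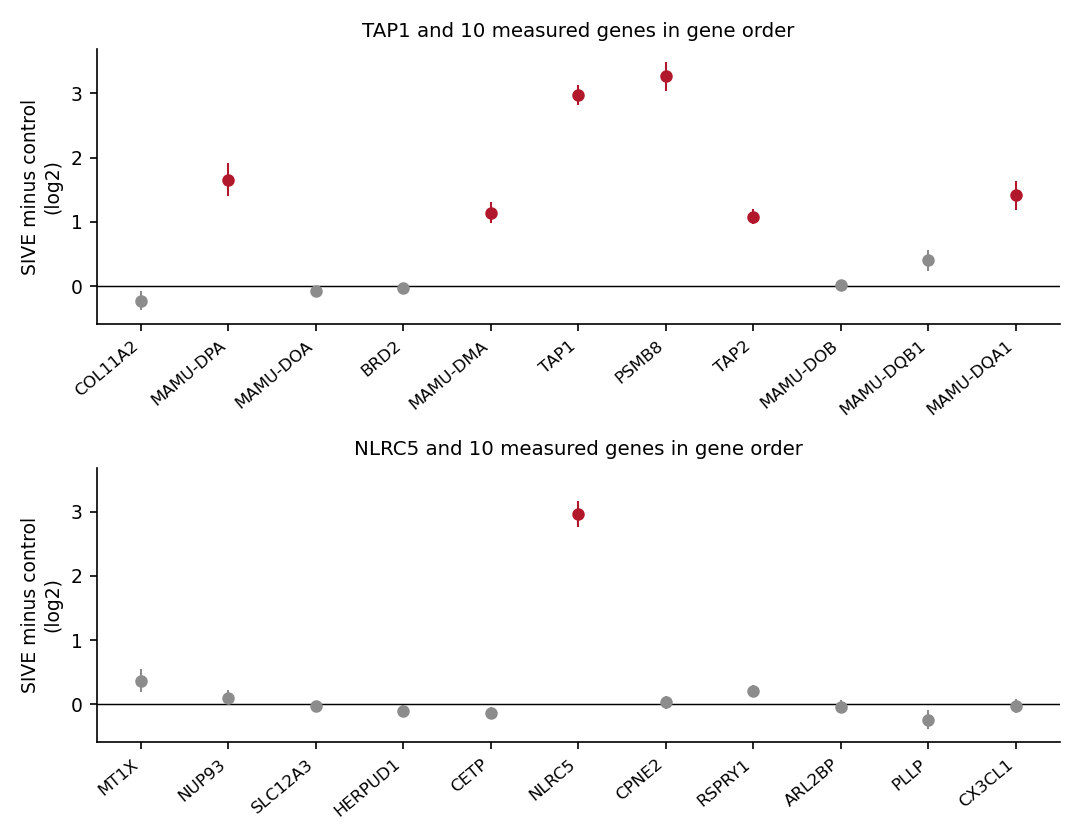
Log2 difference (SIVE minus control) with SE bars of the 5 measured genes on each side of TAP1 and of NLRC5, in gene order, with red points at a limma adjusted p under 0.05 and grey points for the others. TAP1 lies among several higher genes, and NLRC5 stands alone at 2.96 between neighbours from -0.24 to 0.37.

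Genes whose animal-to-animal pattern was most like that of each gene were found by Pearson's r over the deviations of the 18 animals from their own group mean, among 9589 genes. This is a description with no test, and within an animal all genes share the same arrays and RNA. The genes most like TAP1 were CP (ceruloplasmin, a copper-carrying ferroxidase; r = 0.900), IRF1 (0.876), STAP1 (a signalling adaptor; 0.870), RNF114 (a ubiquitin ligase; 0.853) and PLEKHA3 (0.847), with NLRC5 in place 8 (0.833). Those most like NLRC5 were PSME2 (0.946), ISG20 (an interferon-induced exonuclease; 0.924), DTX3L (a ubiquitin ligase; 0.909), BST2 (tetherin, which holds budding virus at the cell surface; 0.903) and IGFBP4 (which binds insulin-like growth factors; 0.901), with TAP1 in place 35. An r of 0.665 to TAP1 and of 0.775 to NLRC5 marked the 99th percentile of all genes compared. All 10 genes named were higher in SIVE, from 0.50 ± 0.12 (SE) in PLEKHA3 to 2.95 ± 0.16 (SE) in BST2. Over all 14132 genes 5.72% were higher, but the 10 are no fair sample of these, and their count was not tested. Genes dim in both groups had been left out, so brightness in SIVE alone was enough to enter. STAP1 averaged 5.71 in SIVE and 3.84 in controls, around the median probe set level of 5.65. TAP1 and NLRC5 also varied more within SIVE (SD ratios of 2.05 and 1.80), so likeness to them leans on the SIVE animals. The lists of 5 had no gene in common.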

How the data were processed

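Total RNA was read on 36 Affymetrix arrays. The deposited values were taken as log2, since none exceeds 14.49, and were made with RMA (background correction, normalization between arrays, summary per probe set), per the submitters' processing notes, which give no version. Of 52865 probe sets, 158 control sets were left out. Symbols came from the probe-to-gene table: 24969 probe sets have 1, 361 several and 27535 none. A gene with several probe sets was read at the brightest. Arrays of an animal were averaged, and groups compared with limma 3.58.1 in R 4.3.3 (two-sided, Benjamini-Hochberg over 52707 probe sets, threshold 0.05). SIVE against control used all 18 animals without covariates, and the other comparisons a mean per group and anti-CD8 label with a shared spread. No source used here says if the 2 arrays share 1 RNA or come from separate tissue pieces. The number of animals limits the precision. Relations used exact permutation tests (Python 3.11.15, scipy 1.17.1). Same-numbered animals of the groups did not vary together and were not treated as pairs in the main fit. This check cannot tell if they were matched by design. Named genes are both members, 4 per pathway list by smallest adjusted p, and the 5 most like genes for each member; neighbours, markers and others were named after their values were seen. The genes and lists were chosen with earlier results of these data known. The fit and the exact tests were tested on simulated data.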

Additional observations from a re-analysis of the deposited data

Results flagged for a closer look

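Examined were 70 groups: SIVE and control for 32 named genes, and for TAP1 and NLRC5 also the 3 anti-CD8 subgroups of 4 or more animals. In 15, all groups of 9 animals, the highest or lowest animal lay farther from its nearest neighbour than Dixon's 95% limit for 9 values (0.493 of the range); chance flags about 1 in 20 groups. NLRC5 was high in Control 8 (6.16, next 5.46). Control 8 was also the highest control for ABCB9 (7.42), TAPBP (9.36), PSME2 (8.98), FCGRT (9.61), ISG20 (6.35) and BST2 (9.00), and the lowest for PDIA3 (9.52) and B2M (10.52). This animal has the highest 3′ over 5′ control signal of all (1.45) and was given anti-CD8; the part of either in these values was not tested. SIVE 7 was the highest SIVE animal for IRF1 (9.24) and PLEKHA3 (7.37), SIVE 9 the lowest for MAMU-I (10.39) and SIVE 2 the lowest for RFX5 (7.38). Control 9 was the highest control for CIITA (6.43) and Control 1 the lowest for STAP1 (3.53).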

How the results depend on the processing

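The SIVE rise kept its direction and its call in all 28 alternatives for both genes, from 2.87 to 3.07 for TAP1 (adjusted p up to 1.5e-06) and from 2.85 to 3.06 for NLRC5 (up to 2.71e-05). The mean of all probe sets of a gene was not run for either gene, which has 1 probe set. Same-numbered animals of the groups did not vary together (r from -0.488 to 0.089 in 9 pairs, 0 of them best with their own number). With a replicate block the rise was 2.98 for TAP1 and 2.96 for NLRC5. No replicate number holds treated animals of both groups, so the block compares these only through untreated animals. In treated animals the replicate block gave 2.39 for TAP1 (adjusted p = 0.379; 4e-05 without it, range over alternatives 2.06e-06 to 0.379) and 1.80 for NLRC5 (adjusted p = 0.526; range 0.000139 to 0.526), no longer past the test. It called 1368 probe sets in SIVE against control, where 2595 were called without it and 5294 with anti-CD8 as a covariate; the cause was not tested. Calls that were higher made up 73.7% as deposited, 84.4% with arrays centred on their medians, 59.3% on the first arrays, 82.6% on the second, 65.8% without the 3 animals of high 3′ signal and 88.0% with the block. The number of pathway genes higher ran from 16 to 21.

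The anti-CD8 contrast within SIVE changed sign. Leaving out each animal in turn gave -0.29 to 0.0506 for TAP1 (0.03 without SIVE 1, 0.0506 without SIVE 7) and -0.18 to 0.36 for NLRC5 (-0.18 without SIVE 2, -0.09 without SIVE 8). For NLRC5 it was -0.30 with the replicate block and -0.40 without the 3 animals of high 3′ signal.

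The relation of TAP1 and NLRC5 within SIVE had r from 0.862 to 0.975. That of IRF1 missed the threshold in 3 of 15 alternatives with TAP1 and 5 of 15 with NLRC5. B2M with TAP1 gave -0.0506 on the first arrays, -0.0833 after quantile normalization and -0.29 to 0.50 leaving out each animal; B2M with NLRC5 gave 0.0035 with all probe sets averaged, 0.65 without SIVE 2 and SIVE 3, and -0.64 to 0.29 leaving out each animal. The 3′ signal with NLRC5 gave -0.0277 to 0.70 leaving out each animal.

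Counts of probe sets called also moved in the anti-CD8 comparisons. In treated animals 555 became 1661 without Control 5, 355 without SIVE 4, 979 on the second arrays, 187 with age, 205 without the animals of high 3′ signal and 12 with the block. In untreated animals 1652 became 531 and 2512 (block; animals of high 3′ signal left out). Within controls 0 became 769 without Control 5 and 284 on the second arrays. The count moved most without Control 9, which left Control 8 as the lone treated control. Control 8 has the highest 3′ over 5′ signal of all animals (1.45), and the part of this signal was not tested.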
